A study of Homo sapiens with 13 samples.

Results

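FOXA1 occupancy was examined at 5 genomic windows that hold 7 genes of insulin-like growth factor (IGF) and insulin signalling. FOXA1 is a forkhead transcription factor that can bind its sites in closed chromatin and make them accessible to hormone receptors. The windows, in hg19, were IGF1R on chromosome 15 from 99.00 to 99.60 Mb, INSR on chromosome 19 from 7.05 to 7.35 Mb, IRS1 on chromosome 2 from 227.40 to 227.90 Mb, IGFBP1 and IGFBP3 on chromosome 7 from 45.80 to 46.20 Mb, and IGFBP2 and IGFBP5 on chromosome 2 from 217.35 to 217.75 Mb. Every listed peak whose centre lay in a window was taken, which gave 75 of the 68107 peaks of the study. Of these, 60 came from the 54855 Ishikawa peaks and 15 from the 13252 Hec1A peaks.

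Ishikawa and Hec1A are established human endometrial adenocarcinoma cell lines, and the labels name no treatment or genetic change for either. FOXA1 was mapped by chromatin immunoprecipitation and sequencing (ChIP-seq) with 1 rabbit antibody. In Ishikawa, 6 ChIP libraries were pooled into 343739762 tags and called against 2 pooled libraries of input, which is chromatin without immunoprecipitation. In Hec1A, 3 ChIP libraries were pooled into 143055568 tags, and 2 Hec1A input libraries are labelled. The name given to the Hec1A list refers to those inputs, but its recorded call names none. The local filter (41790 peaks) and the clonality filter (25004) recorded in its header account for the whole step from 80046 putative to 13252 listed peaks. How input was used for Hec1A beyond that record is not known here, which bears on every count set between the lists. Tags are counted as 1 per mapped read, at its 5′ end. With 1 pooled list per line there is no replicate error, no test between the lines was made, and intervals below cover counting error only. The recorded approximate efficiency of the immunoprecipitation was 9.66% for the Ishikawa pool and 1.12% for the Hec1A pool. Counts, shares and tag ratios between the lists are not adjusted for this, and its part in them was not tested. Each line is a single model, so a difference between the lists is one between these 2 lines and their differently filtered lists.

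IGF1R and INSR are receptor tyrosine kinases at the cell surface, the first bound mainly by IGF1 and IGF2 and the second by insulin. IRS1 is the adaptor that both receptors phosphorylate and that recruits phosphoinositide 3-kinase. The IGF binding proteins are secreted, hold IGFs in the extracellular space and so restrain or prolong their action. IGFBP1 is a well-known product of the decidualised endometrium, and forkhead factors bind its promoter in liver.

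No hg19 gene annotation or sequence was used, so whether a peak lay in an exon, an intron or near a start site is not analysed here. A peak in a window is therefore not assigned to a gene. By gene order in the RefSeq table (GRCh38.p14), the protein-coding neighbours are ARRDC4 and PGPEP1L for IGF1R, ZNF557 and ARHGEF18 for INSR, and NYAP2 and RHBDD1 for IRS1. IGFBP1 and IGFBP3 are adjacent, flanked by CCDC201 and TNS3, and IGFBP2 and IGFBP5 are adjacent, flanked by RPL37A and TNP1. RefSeq promoter windows of that build, each covering 300 bases around a start, were matched by symbol for 6 of the 7 genes, and IGFBP1 was not matched. None of their 8 promoter windows held the forkhead letters TGTTTAC or TATTTAC on either strand, which 3.42% and 2.67% of 35116 promoter windows held. These letters were not searched in the peaks.

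In Ishikawa the IGF1R window was the most densely occupied of the 5, and the INSR window held no Hec1A peak. In Hec1A, IGF1R and IRS1 held 5 peaks each, so IRS1 ranked first per Mb only by its narrower window. With the windows widened by 100 kb, IGF1R held 7 Hec1A peaks and IRS1 held 5. IGF1R held 23 Ishikawa and 5 Hec1A peaks, INSR 7 and 0, IRS1 15 and 5, IGFBP1/IGFBP3 8 and 3, and IGFBP2/IGFBP5 7 and 2. In peaks per Mb, the Ishikawa list had 38.3 at IGF1R, 30 at IRS1, 23.3 at INSR, 20 at IGFBP1/IGFBP3 and 17.5 at IGFBP2/IGFBP5, against 18.7 over the span of its peaks on the autosomes and chromosome X. The Hec1A list had 8.33 at IGF1R, 10 at IRS1, 7.5 at IGFBP1/IGFBP3 and 5 at IGFBP2/IGFBP5, against 4.5 over the same span. Ishikawa peaks outnumbered Hec1A peaks 4 times in the windows together and 4.14 times over the whole lists.

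These counts were set beside tiles of the same width laid over the genome. At least 23 Ishikawa peaks stood in 4.72% of 600 kb tiles, and at least 5 Hec1A peaks in 20.7% of them. For IRS1, at least 15 Ishikawa peaks stood in 17.7% of 500 kb tiles, and at least 5 Hec1A peaks in 15.3%. For INSR, at least 7 Ishikawa peaks stood in 37.5% of 300 kb tiles, and 39.3% of them held 0 Hec1A peaks, so an empty INSR window is common at this list length. For the binding protein windows, 47.0% of 400 kb tiles held at least 8 Ishikawa peaks and 55.7% at least 7, and 28.0% held at least 3 Hec1A peaks and 44.8% at least 2.

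**Figure D1:**
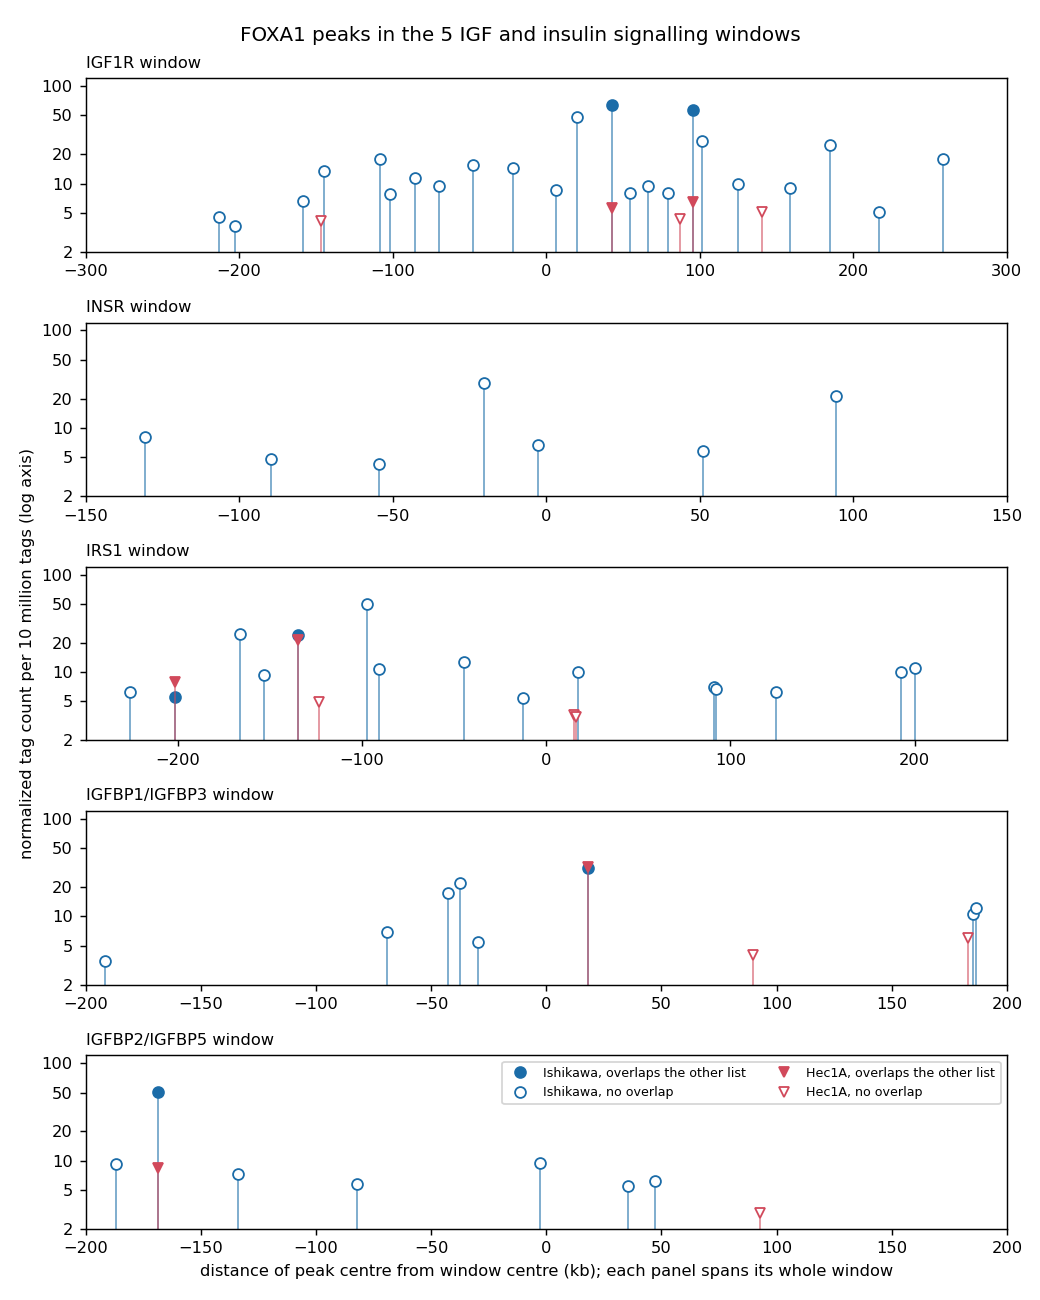
Normalized tag count of every window peak (log axis, tags per 10000000 tags) by its distance from the window's centre, with Ishikawa as circles and Hec1A as triangles, filled where the peak overlaps one of the other list. IGF1R shows 23 Ishikawa peaks of which 2 overlap a Hec1A peak, and INSR shows 7 Ishikawa peaks and 0 of Hec1A.

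Sharing between the lines was limited to 6 sites, 2 at IGF1R, 2 at IRS1, 1 at IGFBP1/IGFBP3 and 1 at IGFBP2/IGFBP5. A site was called shared where the listed intervals overlapped by at least 1 bp. Of the 15 Hec1A peaks 6 (40.0%, exact binomial 95% interval 16.3% to 67.7%) overlapped an Ishikawa peak, against 52.9% of the whole Hec1A list. Of the 60 Ishikawa peaks 6 (10.0%, interval 3.76% to 20.5%) overlapped a Hec1A peak, against 12.8% of the whole Ishikawa list. Both intervals include the share of the whole list, and neighbouring peaks are not independent. The centres of the 6 pairs lay 3 to 26 bp apart.

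By normalized tag count, the 6 shared sites fell into those near-equal or modestly higher in Hec1A and those far higher in Ishikawa. The normalized tag count is the tag number of a peak per 10000000 tags of its pool, and it was taken over 353 bp in Ishikawa and 254 bp in Hec1A. It is not adjusted for the efficiency of the immunoprecipitation in each pool. Over all 7012 shared pairs the median log2 of Hec1A over Ishikawa was -1.82, and the range between the quartiles ran from -2.54 to -1.07. Each pair is therefore also placed by its percentile among all pairs, where a high percentile means relatively more tags in Hec1A.

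The pair of highest Ishikawa tag count lay at IGF1R, at chr15:99342718-99343070 in Ishikawa and chr15:99342754-99343008 in Hec1A. Its normalized tag count was 64.4 in Ishikawa and 5.66 in Hec1A, a log2 ratio of -3.51 (counting interval -3.85 to -3.19) at percentile 6.24. The other IGF1R pair, at chr15:99395435-99395787 in Ishikawa, had 57.5 in Ishikawa and 6.43 in Hec1A, a log2 ratio of -3.16 (-3.48 to -2.86) at percentile 10.3. Both shared sites of the IGF1R window thus had several-fold more tags in Ishikawa, by 11.4 and 8.94 times. The median over all pairs was 3.53 times. The Hec1A peaks stood in the upper part of their own list, at score percentiles 66.9 and 75.2. In the Ishikawa list the same sites stood at percentiles 96.4 and 95.5.

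At IRS1 the shared sites had the reverse placement among pairs. The site at chr2:227514958-227515310 in Ishikawa had a normalized tag count of 23.9, and 21.4 in Hec1A, a log2 ratio of -0.16 (-0.35 to 0.03) at percentile 91.8. The weaker site at chr2:227448438-227448790 in Ishikawa had 5.53, and 7.83 in Hec1A, a log2 ratio of 0.50 (0.15 to 0.85) at percentile 96.6. This second site was weak within the Ishikawa list, at score percentile 21.6, and in the upper part of the Hec1A list, at 82.0. The first was high in both, at 85.4 in Ishikawa and 96.4 in Hec1A.

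The shared site of the IGFBP1/IGFBP3 window, at chr7:46017826-46018178 in Ishikawa, was the Hec1A peak of highest tag count in any of the windows. It had a normalized tag count of 32.3 in Hec1A and 31.4 in Ishikawa, a log2 ratio of 0.04 (-0.12 to 0.20) at percentile 93.8. The shared site of the IGFBP2/IGFBP5 window, at chr2:217381450-217381802 in Ishikawa, had 50.9 in Ishikawa and 8.46 in Hec1A, a log2 ratio of -2.59 (-2.87 to -2.32) at percentile 23.6. Each binding protein window thus gave 1 shared pair. The IGFBP2/IGFBP5 pair lay just below the lower quartile of all pairs (-2.54), less far from their median than the IGF1R pairs. The counting intervals of the IRS1 and IGFBP1/IGFBP3 pairs did not overlap those of the other 3, and these intervals leave out the variation between libraries. The groups were read from these same ratios, so the gap between the intervals is no test of the grouping. The counting interval of the weaker IRS1 pair, 0.15 to 0.85, lay above equality. Hec1A had the higher tag count in 2 of the 6 window pairs (33.3%, exact binomial interval 4.33% to 77.7%) and in 6.43% of all pairs. This interval includes the share of all pairs, and the counting interval of the IGFBP1/IGFBP3 pair includes equality.

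**Figure D2:**
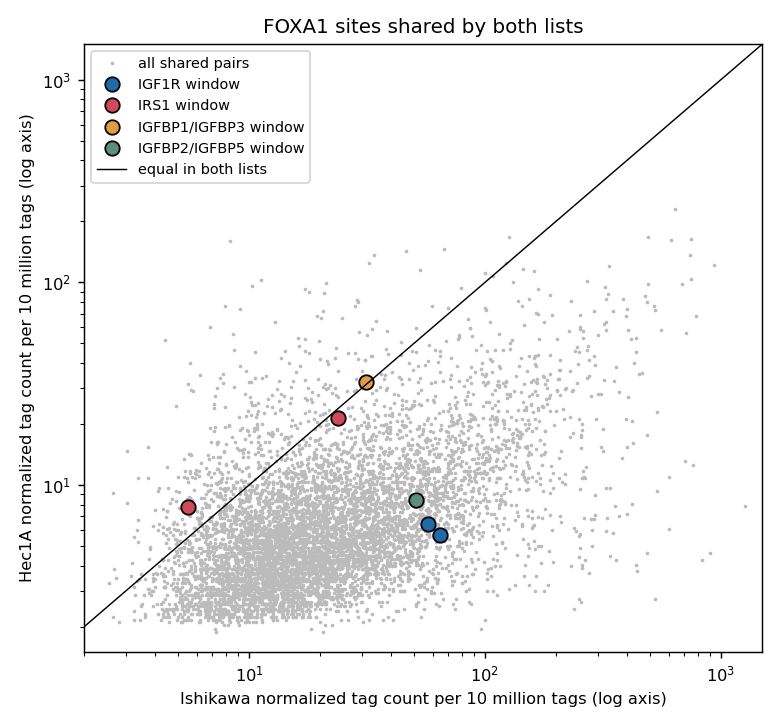
Normalized tag count of the 7012 shared pairs in Ishikawa (x) and Hec1A (y), both on log axes, with the 6 window pairs as large points and a line of equality. The IRS1 and IGFBP1/IGFBP3 points lie near or above the line, and the IGF1R and IGFBP2/IGFBP5 points lie well below it.

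Part of this difference lay in the level of the region around a site. This level is the normalized tag count divided by the authors' fold over the surrounding 10000 bp. It is derived from the same tag counts and so is not an independent measure. At the IGF1R pairs it was 2.95 and 3.92 in Ishikawa and 0.894 and 1.1 in Hec1A, against list medians of 1.34 and 0.810. At IGFBP2/IGFBP5 it was 1.34 and 0.576. At the IRS1 pairs the levels lay closer together, at 1.39 and 1.22 for the first and 0.957 and 0.676 for the weaker site, and at IGFBP1/IGFBP3 they were 1.59 and 1.40. On the log2 scale the regional ratio of Hec1A over Ishikawa was -1.72, -1.83 and -1.22 at the IGF1R and IGFBP2/IGFBP5 pairs, and -0.19, -0.50 and -0.18 at the others, against a median of -0.88 over all pairs.

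Ratios of the local folds divide that level out, and each list gives these folds on its own terms. The ratios left the same 3 pairs lower and the same 3 higher, with the lower ones nearer to or within the ordinary range. Their log2 values were -1.79, -1.33 and -1.37 at the IGF1R and IGFBP2/IGFBP5 pairs. They were 0.03, 1.00 and 0.22 at the IRS1 and IGFBP1/IGFBP3 pairs, against a median of -0.92 over all pairs. By this ratio the IGF1R pairs stood at percentiles 17.6 and 33.4 of all pairs and the IGFBP2/IGFBP5 pair at 31.9, and the others at 83.7, 97.1 and 87.9. The IGFBP2/IGFBP5 pair and the IGF1R pair at chr15:99395435-99395787 thus lay between the quartiles of all pairs. The spread between the groups was smaller on this scale, and the IRS1 pair at chr2:227514958-227515310 turned from -0.16 to 0.03. The level includes tags of other peaks within the same 10000 bp.

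**Figure D3:**
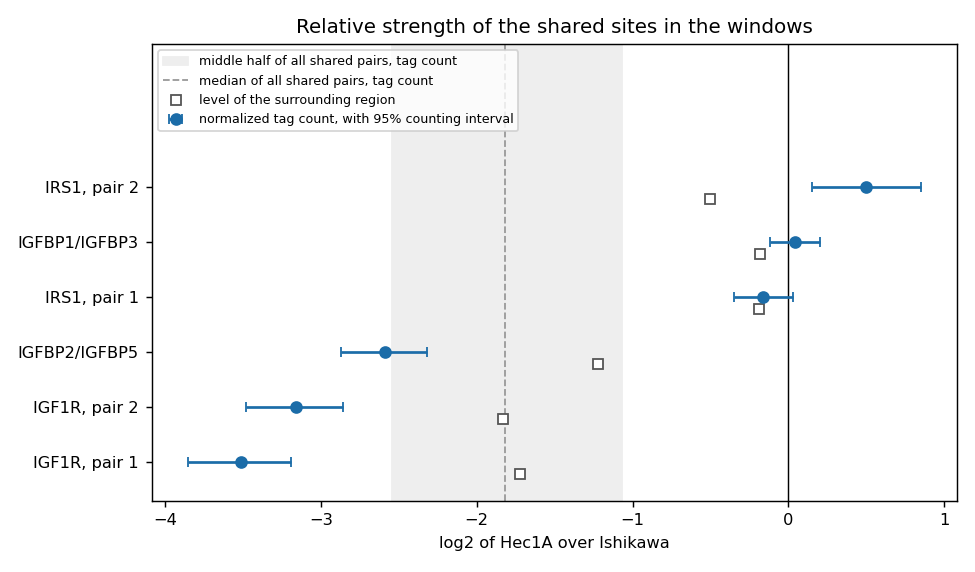
Log2 of Hec1A over Ishikawa for the 6 shared pairs, as filled points for the normalized tag count with the 95% counting interval and as open squares for the level of the surrounding region; the grey band and dashed line show the interquartile range and median over all 7012 pairs. The lower 3 pairs (IGF1R pair 1 at -3.51, pair 2 at -3.16 and IGFBP2/IGFBP5 at -2.59) lie left of the band, and the IRS1 pairs and the IGFBP1/IGFBP3 pair lie between -0.16 and 0.50.

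Strong Ishikawa sites of the windows had a Hec1A partner about as often as strong sites of the whole list. Of the 16 window peaks within the 25% of Ishikawa peaks of highest tag count, 5 had one (31.2%, interval 11% to 58.7%), against 29.0% of all Ishikawa peaks of that class.

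At IGF1R, the third of the 3 peaks of highest score lay at chr15:99320006-99320358, with a normalized tag count of 48.7, and the nearest Hec1A centre was 22.7 kb away. Its regional level was 2.71, and the levels at this peak and the shared sites (2.95 and 3.92) were the 3 highest of the window, while the 3 weaker peaks between the shared sites had 1.29 to 1.79. The Ishikawa tag counts at IGF1R otherwise ran from 3.64 to 27.5, with a median of 9.86 over all 23 peaks, close to the list median of 9.69. Neighbouring Ishikawa centres stood a median of 19.3 kb apart, from 5.57 to 44.0 kb, so the peaks were spread over most of the window. Of these 23 peaks, 7 were among the 25% of highest score in the list.

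At INSR, the peak of highest score lay at chr19:7179447-7179799, with a normalized tag count of 29.0, which was 18.95 times the local region and 16.04 times the input. The next, at chr19:7294188-7294540, had a tag count of 21.1, which was 13.93 times the local region and 163.51 times the input. That last fold rests on an input of 0.5 tags, the lowest value in the input column, which 1.16% of Ishikawa peaks have. The third, at chr19:7069209-7069561, had a tag count of 7.97 and a fold over input of 4.41. The other 4 INSR peaks ran from 4.22 to 6.72 in tag count, so the receptor's window held 2 strong sites and several weak ones. The nearest listed Hec1A peaks lay 221 kb before the window, with a tag count of 11.3, and 106 kb after it, with 8.95. A site absent from the Hec1A list did not pass that list's thresholds, which does not show that FOXA1 was absent from it.

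At IRS1, the Ishikawa peak of highest score had no Hec1A partner. It lay at chr2:227552391-227552743, with a normalized tag count of 49.9, which was 23.36 times the local region, and the nearest Hec1A centre was 25.7 kb away. Its score was only 0.64 of its tag number, at percentile 7.94 of the list for that ratio. The next by score, at chr2:227483935-227484287, had a tag count of 24.7 and a fold over input of 23.93, and also stood alone, 31.0 kb from a Hec1A centre. The third was the shared site with 23.9. The window's strongest Hec1A site was therefore the third in Ishikawa by score, and the Ishikawa site of highest score was not listed in Hec1A.

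In the IGFBP1/IGFBP3 window, the shared site led both lists. Behind it in Ishikawa came a pair of sites whose centres lay 4.99 kb apart, at chr7:45962374-45962726 with a tag count of 22 and at chr7:45957380-45957732 with 17.3. The nearest Hec1A centre was 55.4 kb from the first and 60.4 kb from the other. The other 5 Ishikawa peaks ran from 3.46 to 12.3.

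In the IGFBP2/IGFBP5 window, the shared site stood far above the rest of the Ishikawa peaks. Its tag count of 50.9 compares with 9.43 at chr2:217547136-217547488 and 9.22 at chr2:217363245-217363597, the next by tag count, and with 5.47 to 7.30 at the other 4. Its tags were 37.97 times those of the local region, which was the highest of the 60 Ishikawa window peaks. This window and INSR had the lowest median score percentiles within the Ishikawa list, 32.1 and 32.9, against 55.7 at IGF1R, 55.7 at IRS1 and 60.4 at IGFBP1/IGFBP3.

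**Figure D4:**
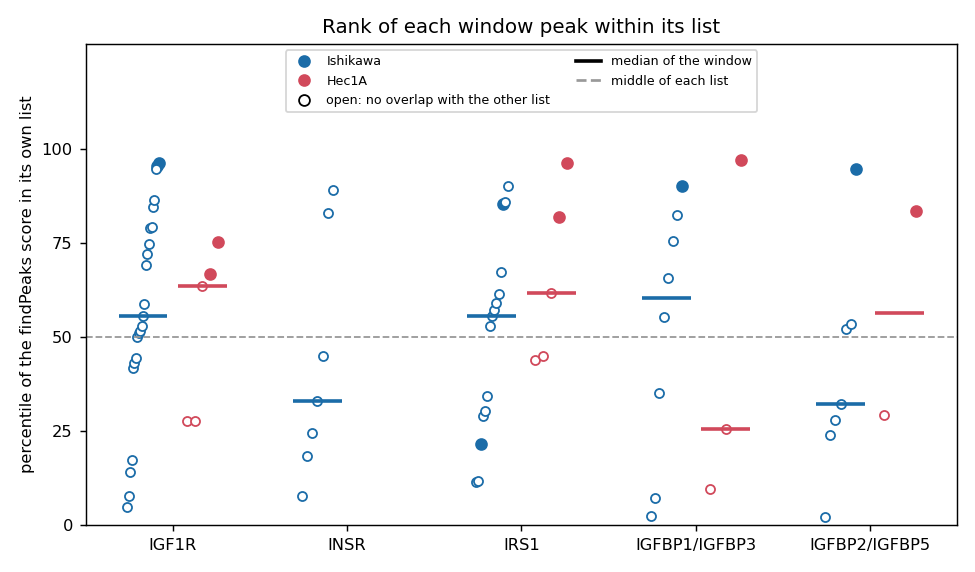
Percentile of the findPeaks score of every window peak within its own list, by window, with Ishikawa in blue and Hec1A in red, filled where the site is shared and with a bar at the median of each window. Medians of Ishikawa peaks run from 32.1 at IGFBP2/IGFBP5 to 60.4 at IGFBP1/IGFBP3, and the 2 highest Hec1A points are the shared sites of IGFBP1/IGFBP3 at 97.1 and IRS1 at 96.4.

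The 60 Ishikawa window peaks were of ordinary strength for their list. Their median score percentile was 53.0 (order-statistic 95% interval 41.8 to 61.5), and 16 of them (26.7%) were among the 25.0% of highest score. A fold over input of at least 8 was reached by 27 (45.0%), against 48.6% of the list, and a local fold of at least 8 by 27 (45.0%), against 40.1%. The median number of input tags was 5 in the windows and 5 in the list, with a window range of 0.5 to 13. The 15 Hec1A window peaks had a median score percentile of 61.7 (27.6 to 82.0), and 4 of them (26.7%) reached a local fold of 8, against 26.0% of that list.

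The 9 Hec1A peaks without an overlapping Ishikawa peak mostly had tag counts below the Hec1A list median of 4.96. Their normalized tag counts ran from 2.87 to 5.94, while the 6 shared Hec1A peaks ran from 5.66 to 32.3. The share of all unshared Hec1A peaks below that median is not given here, so this is not read as a trait of the windows. Of the 9, 4 (44.4%, exact binomial interval 13.7% to 78.8%) had an Ishikawa centre within 5 kb, against 20.6% of the 6240 such peaks of the list, a distance chosen after the data were seen. These neighbours lay at IGF1R (2.12 kb), at IRS1 (1.11 and 2.16 kb, both to the same Ishikawa peak) and at IGFBP1/IGFBP3 (2.05 kb). The IRS1 Hec1A peaks, at chr2:227665169-227665423 and chr2:227666215-227666469, had tag counts of 3.63 and 3.43 and faced an Ishikawa peak of 10.1 at chr2:227667276-227667628.

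The remaining 5 Hec1A peaks lay 8.12 to 71.7 kb from an Ishikawa centre. They were chr15:99387073-99387327 with a tag count of 4.33, chr15:99440120-99440374 with 5.17, chr2:227526693-227526947 with 4.96, chr7:46089621-46089875 with 4.05 and chr2:217642705-217642959 with 2.87. None exceeded its local region by more than 6.82 times, and the median of the Hec1A list was 5.71.

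Tags stacked on few positions were about as frequent among the Hec1A window peaks as in their list. The authors' clonal fold rises when a peak's tags occupy fewer positions than expected, and peaks above 2 were removed from both lists. Of the 15 Hec1A peaks 4 (26.7%) had a clonal fold above 1, against 28.8% of the list, and 0 of these 4 (exact binomial interval 0% to 60.2%) was shared, against 24.6% of such peaks in the list. Of the 9 unshared window peaks these were 44.4%, against 46.2% of all unshared Hec1A peaks. They were the IGF1R peaks at chr15:99153014-99153268 (1.56) and chr15:99387073-99387327 (1.19), and the IGFBP1/IGFBP3 peaks at chr7:46089621-46089875 (1.6) and chr7:46182943-46183197 (1.85). At a clonal fold of 1 or less, 6 of 11 window peaks (54.5%, interval 23.4% to 83.3%) were shared, against 64.4% of the list. The 3 Hec1A peaks of the IGFBP1/IGFBP3 window also had regional levels of 0.969 to 1.47, above the list median of 0.810. No input filter is recorded for the Hec1A list, whose name refers to inputs, and the part of regional level and clonality in these peaks was not tested.

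The edges of the windows were set by position, and peaks continued beyond some of them. The IGF1R window was followed 2.43 kb past its end by an Ishikawa peak with a tag count of 5, while the last inside it had 18.1. The IRS1 window was followed at 14.1 kb by one with 13.2, and preceded at 26.2 kb by one with 18.1. The nearest Hec1A peak outside any window lay 43.6 kb before the IGF1R window, with a tag count of 2.66. The Hec1A peak 45.3 kb past the IGFBP1/IGFBP3 window had a tag count of 18.5, above all but 1 of those inside it.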

How the data were processed

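HOMER 4.7.2, Bowtie 1.1.2, SAMtools 1.3.1 and the build hg19 are named in the submitters' processing notes. The authors ran findPeaks in factor mode on the pooled tags of each line, per the file headers, at a false discovery rate of 0.001 (88 tags in Ishikawa, 32 in Hec1A). The required fold was 4 over the surrounding 10000 bp and, in Ishikawa, also 4 over input. Libraries of both kits named in the labels are mixed in each pool.

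All per-peak values are the authors' own. The normalized tag count was deposited as a signal per 10000000 tags. The focus ratio, deposited as a fraction, was not compared. The findPeaks score, which the authors deposited as a tag number, gave ranks within a list. The local fold, the fold over input and the clonal fold were deposited as ratios. The deposited p-value columns were not used.

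Peaks were assigned to windows by centre and matched by an overlap of at least 1 bp, after the matching was tested on simulated lists. Tag numbers for counting intervals were the normalized tag count times the pool's tags per 10000000, rounded, with exact (Clopper-Pearson) 95% intervals. Tiles ran from the first to the last Ishikawa peak of each autosome and chromosome X. Python 3.11.15, pandas 2.3.3 and scipy 1.17.1 were used. In each window every shared pair, every Hec1A peak and the 3 Ishikawa peaks of highest score are named, and edge and other peaks named beside them were chosen after their values were seen. Members and lists were chosen with earlier results of these data known, and the tiles, the 5 kb distance and the score-to-tag ratio after seeing the values. Gene positions, other genes of the pathway and motifs in peaks were planned for the case of an hg19 reference and are not analysed here.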

Additional observations from a re-analysis of the deposited data

How the results depend on the processing

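Over results and settings, 80 alternatives were computed. Of these, 48 stayed close to the reported value (within its interval, within 1.5 times for a count, or within 0.5 on the log2 scale for a pair), 31 moved and 1 turned its direction. A local fold of at least 8 left 27 Ishikawa and 4 Hec1A peaks in the windows. Of those 4, 75.0% (interval 19.4% to 99.4%) had a partner. A fold of at least 8 over input left 27 Ishikawa peaks. With the Ishikawa list reduced to the length of the Hec1A list, 15 Ishikawa window peaks were left. Of them 33.3% (interval 11.8% to 61.6%) had a partner, and the Hec1A share was then also 33.3%. The shares of the whole lists at these settings are not given here, so 75.0% and 33.3% are not placed against a background. The lower numbers follow from the thresholds. By the ratio of local folds, the shared IRS1 pair whose Hec1A peak starts at 227514996 turned from -0.16 to 0.03 on the log2 scale, as this ratio divides out the regional level. Hec1A peaks carry no fold over input, so that threshold was run on Ishikawa alone. Single libraries could not be left out, as each list pools its libraries. No paired analysis was possible because pooling removed the single libraries. With 6 shared pairs and 15 Hec1A peaks, shares in the windows have wide intervals.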

Other observations

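The findPeaks score and the tag number of a peak were close in most window peaks. Of the 60 Ishikawa peaks 5 (8.33%) had a score under 0.7 of their tag number, against 10.8% of the list, and of the 15 Hec1A peaks 4 (26.7%), against 25.2%. The Ishikawa peaks include the IRS1 peak of highest score, at chr2:227552391-227552743, with a ratio of 0.64 and a clonal fold of 0.91. The other 4 had clonal folds of 1.3 to 1.78. By tag count this IRS1 peak stood at percentile 94.6 of the Ishikawa list, and by score at 90.2.

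The Ishikawa peak at chr7:45808452-45808804, near the start of the IGFBP1/IGFBP3 window, had 24.64 times the tags of its local region, with a normalized tag count of 3.46. Its regional level was 0.14, the lowest of the 60 window peaks, against a list median of 1.34. Its fold over input was 6.70.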
